A study of Mus musculus with 11 samples.

Results

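The nuclear genes for the subunits of oxidative phosphorylation were examined in the embryonic mouse cortex of controls and of Chd8 conditional knockouts. Members were taken by gene symbol alone. Symbols beginning with Nduf and a subunit letter were placed in complex I, the Sdh genes in complex II, symbols beginning with Uqcr together with Cyc1 in complex III, Cox subunits with the numbers 4 to 8 in complex IV, symbols beginning with Atp5 in complex V, and Cycs was kept as cytochrome c. The rule used no measured value, and it found 86 of the 24138 loci in the deposited table, 37 in complex I, 4 in complex II, 9 in complex III, 18 in complex IV, 17 in complex V and Cycs.

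RNA was sequenced from microdissected cortex at stage E14.5 in 3 control libraries and 2 Chd8 conditional knockout (cKO) libraries. Control replicate 1 was labelled Chd8 c/+, control replicates 2 and 3 were labelled Chd8 c/c, and none of the controls carried Cre. One protocol field speaks of Eed cKO cortex for these RNA samples, while the titles, genotypes and extraction protocol all name Chd8. Both cKO libraries were labelled Chd8 c/c, Emx1-cre, so every library, controls included, carried at least 1 c allele. Emx1-cre expresses Cre recombinase in the progenitors of the dorsal telencephalon and their offspring, and other cells of the dissected tissue (ventrally born interneurons, vessels, microglia) lie outside its lineage. The labels do not say whether a library came from 1 embryo or from a pool, so p-values measure the spread between these libraries, which may be technical. A further 6 ATAC-seq samples were not analysed here.

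CHD8 is a chromatin remodelling ATPase of the CHD family. In oxidative phosphorylation, electrons from NADH enter at complex I and those from succinate at complex II, both of which reduce ubiquinone. Complex III passes the electrons from ubiquinol to cytochrome c, complex IV passes them on to oxygen, and complex V, the ATP synthase, makes ATP from the proton gradient that complexes I, III and IV build. Complex II is made only from nuclear genes, while the others also hold subunits from the mitochondrial genome. In the developing cortex, proliferating progenitors rely strongly on glycolysis, and oxidative phosphorylation gains weight as neurons differentiate.

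The targeted gene was read first. Chd8 (chr14:52198151-52258042, mm10) was at 31.5, 30.0 and 31.8 FPKM (fragments per transcript length and mapped library size) in control replicates 1 to 3, and at 19.3 and 15.1 FPKM in cKO replicates 1 and 2. Both cKO libraries lay below every control, with a log2 change of -0.83 (SE 0.15; adjusted p = 0.575 in limma; exact permutation p = 0.1, two-sided, the smallest that the 10 splits of 3 and 2 libraries allow). The authors' deposited table marked Chd8 as significant (q = 0.00331). The limma fit did not call the targeted gene, so a gene that it does not call is not thereby shown to be unchanged. Summed FPKM ran from 418191 to 484296 per library, and 12237 to 12717 loci reached 1 FPKM. Pearson correlations between libraries across loci were 0.880 to 0.933. Sequencing depth could not be read from these values. Markers of radial glia (9 of 9 genes tested; summed 1370 to 1905 FPKM in controls, 1422 to 1502 in cKO) and of cortical projection neurons (9 of 9; 2484 to 2540 in controls, 2072 to 2805 in cKO) were abundant in every library. Markers of choroid plexus (5 genes, 1 of them tested) summed to 2.63 to 4.65 FPKM in controls and 0.626 to 0.628 in cKO.

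RefSeq start sites (build GRCm38.p6) were matched for 70 of the 86 subunit genes. Stretches before the start are shown because these genes are classical targets of the factors NRF1, GABP (an ETS factor) and YY1. The part of these factors in the levels given below was not tested. Capitals mark the match, on either strand, and every stretch is written 5′ to 3′ along the gene's own strand.
Cycs, chr6:50566602-50566649, minus strand, NRF1: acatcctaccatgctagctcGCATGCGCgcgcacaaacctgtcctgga
Sdhb, chr4:140961197-140961244, plus strand, NRF1: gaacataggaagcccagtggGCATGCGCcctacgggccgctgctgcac
Ndufa6, chr15:82354347-82354394, minus strand, NRF1: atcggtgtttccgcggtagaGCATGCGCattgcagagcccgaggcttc
Cox6a1, chr5:115349091-115349138, minus strand, NRF1: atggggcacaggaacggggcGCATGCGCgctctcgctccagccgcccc
Ndufb7, chr8:83566718-83566757, plus strand, ETS: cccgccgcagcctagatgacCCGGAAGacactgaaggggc
Uqcrh, chr4:116075071-116075100, minus strand, ETS: actacgaggagtatgccgcaCTTCCGGcca
Sdhd, chr9:50603869-50603915, minus strand, ETS: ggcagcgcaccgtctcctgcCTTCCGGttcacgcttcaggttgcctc
Ndufb5, chr3:32736969-32737017, plus strand, YY1: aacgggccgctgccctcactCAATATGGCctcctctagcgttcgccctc
Ndufb11, chrX:20617803-20617851, minus strand, YY1: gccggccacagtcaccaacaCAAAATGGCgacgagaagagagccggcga

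In the window from 250 bases before to 50 bases after the start, searched on both strands, the NRF1 letters GCATGCGC stood in 11 of the 70 genes (15.7%). The same letters stood in 3.05% of all 27025 genes with a window and in 6.14% of the 9878 genes of tested loci. The YY1 letters GCCATNTTG stood in 12 of 70 (17.1%), against 2.90% of all genes and 5.06% of the genes of tested loci. The ETS letters CCGGAAG stood in 16 of 70 (22.9%), against 9.93% and 20.01%. At least 1 of the 3 motifs was found in 33 genes, and no match overlapped a match of another motif. The 11 genes with the NRF1 letters were Atp5g2, Atp5k, Atp5l, Cox6a1, Cycs, Ndufa11, Ndufa6, Ndufa8, Sdhb, Uqcr11 and Uqcrc1, so they spanned all 5 complexes and cytochrome c. A match is a description of letters and not a site of binding.

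The subunits were among the abundant transcripts of the cortex. A test was made where the mean over all libraries reached 1 FPKM, which kept 80 of the 86 members. Their median level was 115 FPKM, against 13.2 FPKM for all 12672 tested loci. FPKM is scaled to transcript length, which allows only a rough comparison of levels between genes. By complex, the median level was 102 FPKM for complex I, 93.4 for complex II, 176 for complex III, 154 for complex IV and 230 for complex V. Atp5e, the epsilon subunit of the ATP synthase rotor stalk, had the highest mean (782 FPKM), followed by Cox4i1, the common form of complex IV subunit 4 (736 FPKM), and Atp5b, the catalytic beta subunit (626 FPKM). Their values in single libraries overlapped, from 604 to 952 FPKM for Atp5e, 628 to 880 for Cox4i1 and 533 to 715 for Atp5b, so this order is not separated beyond the spread between libraries.

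The 6 members that were not tested were Cox6a2, Cox7b2, Cox8b and Cox8c, forms of complex IV subunits known from muscle or testis, and Atp5g2 and Atp5l. Their values were 0.526 FPKM or lower in every library, and Cox8c was listed at 0 in all 5. Atp5g2 encodes the c subunit of the ATP synthase ring and Atp5l its g subunit, which are general parts of the enzyme. Among the 76 members that are not tissue isoforms and belong to the enzymes, 6 had a mean under 15 FPKM, namely Ndufs5, Cox7c, Atp5g1, Atp5g2, Atp5l and Cycs. RefSeq lists pseudogenes named for 4 of these 6, but none for Atp5g1 or Atp5g2. It lists them for 7 of the 70 above that level, among them Atp5k (4 pseudogenes, mean 400 FPKM) and Uqcrh (2 pseudogenes, mean 274 FPKM). Reads from near-identical copies can be lost or shared between loci, so the level of any gene with such copies is uncertain. The levels of all 6 low members are treated as uncertain here, and the part of such copies was not tested.

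**Figure D1:**
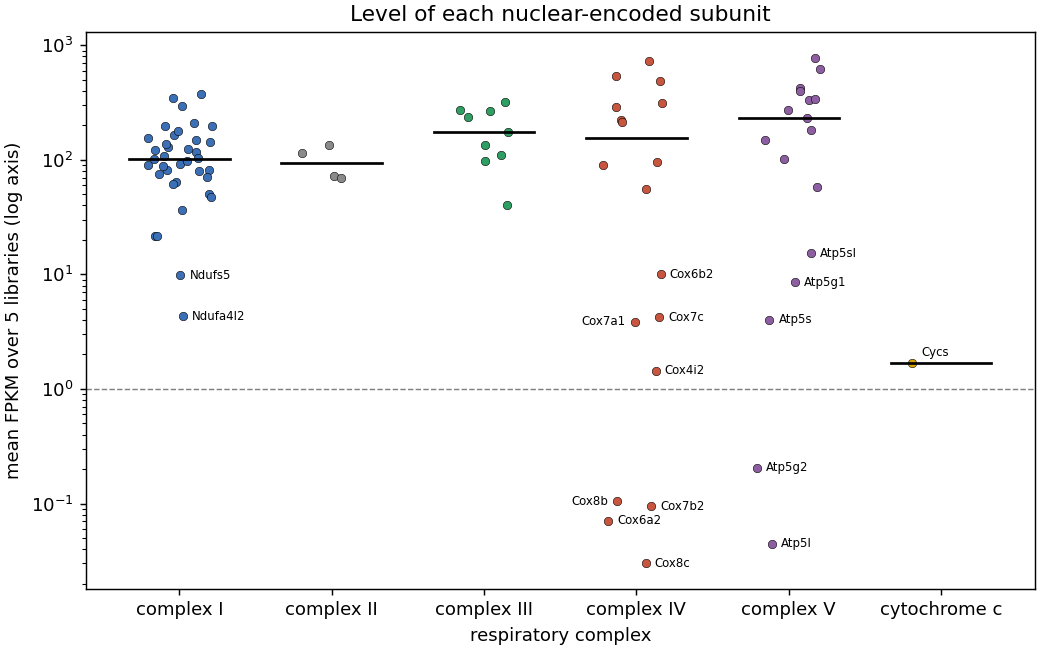
Mean FPKM over the 5 libraries (log axis) of each of the 86 subunit genes, by respiratory complex; each point is a gene, the black bar is the median of the tested genes of that complex, and the dashed line is the minimum of 1 FPKM for testing. Most subunits lie near the medians of 93.4 to 230 FPKM, while the named genes fall far below, and Cox8c, at 0 in every library, is drawn at the bottom.

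The question of the comparison was whether the subunits differ between cKO and control cortex. No subunit passed the limma test, which did not call Chd8 either. At an adjusted p under 0.05 in limma, 0 of 80 subunits were called, against 6 of 12672 loci (0.0473%). At an unadjusted p under 0.05 there were 3 of 80 subunits (3.75%), against 7.45% of all loci. These were Ndufc1, with a positive log2 change, and Cox7a1 and Atp5sl, with negative ones. The authors' deposited table likewise marked 0 of the 80 subunits that it tested as significant, against 4.21% of all loci tested there. That table's lowest q-value for a subunit was 0.111, for Uqcrh, and its p-value was under 0.05 for 4 of 80, Uqcrh, Ndufb7, Cox5a and Cox6b2, against 15.7% of all loci.

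The log2 changes of the subunits were small and centred near 0. They ran from -0.76 to 0.90 with a median of -0.03, against a median of -0.02 for all tested loci, and 44 of 80 (55.0%) were negative, against 53.1% of all loci. The size of the change without its sign had a median of 0.15 for subunits and 0.20 for all loci. The 95% interval of the change lay within 1 log2 unit of 0 for 71 of 80 subunits (88.8%), against 77.5% of all loci. Halving that bound left 15 of 80 subunits (18.75%), against 19.9% of all loci. The median SE was 0.19 for subunits and 0.19 for all loci, so smaller changes were bounded no better in the subunits. For 30 of 80 (37.5%) both cKO libraries lay inside the range of the 3 controls, against 28.6% of all loci. Both cKO libraries lay above every control for 8 of 80 subunits, against 13.4% of all loci, namely Ndufa5, Ndufc1, Ndufv2, Uqcrc2, Cox5a, Cox7a2, Cox7b and Cycs. Both lay below every control for 5 of 80 subunits (6.25%), against 15.6% of all loci, namely Ndufs6, Cox7a1, Cox7c, Atp5a1 and Atp5sl. Both of the last shares were below the background.

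The balance of directions followed the scaling of the libraries. With each library's FPKM rescaled to an equal sum, 35 of 80 subunits were negative (43.8%) with a median of 0.03. With quantile normalization, 25 of 80 were negative (31.3%) with a median of 0.07. The median of all tested loci was 0.03 and 0.02 in these settings.

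**Figure D2:**
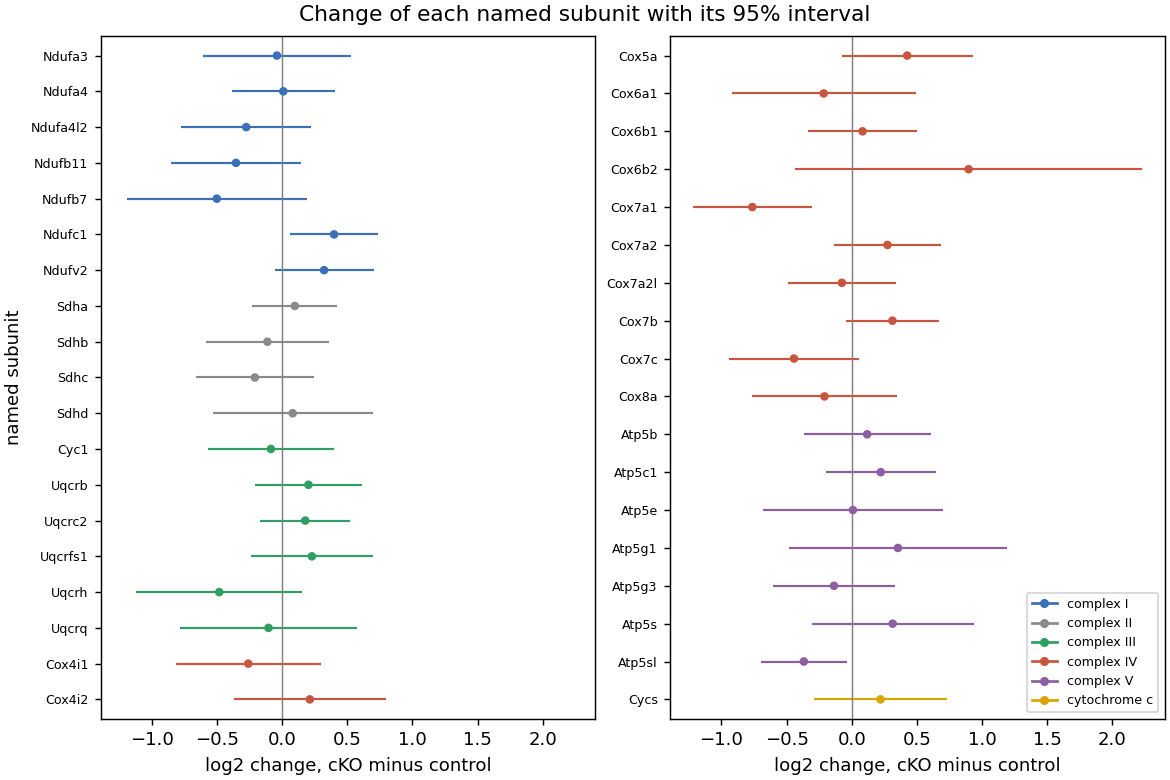
Log2 change (cKO minus control, on log2(FPKM + 1)) of the 37 tested subunits named by the rule for named genes, each with its 95% interval from limma over 3 control and 2 cKO libraries, coloured by complex. The intervals of Ndufc1, Cox7a1 and Atp5sl leave out 0 before adjustment, and those of the other genes drawn include it.

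Complex I, the NADH dehydrogenase, had 37 tested members. The median log2 change was -0.03 and 20 of 37 were negative, with a range from -0.50 to 0.40. The 29 accessory subunits, which surround the catalytic core, had a median of -0.02 with 15 of 29 negative.

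Ndufc1 (chr3:51405479-51408955), a small accessory subunit of the membrane arm, was at 122, 135 and 125 FPKM in the controls and 174 and 163 FPKM in cKO. Both cKO libraries were above all controls, with means of 168 ± 7.60 (SD, n = 2) against 128 ± 6.60 FPKM (SD, n = 3). The log2 change was 0.40 (SE 0.13; adjusted p = 0.575 in limma). It was the only complex I member with an unadjusted p under 0.05 (0.0276 in limma). Leaving out each library in turn or changing the settings gave values from 0.35 to 0.52, with adjusted p of 0.316 or above in limma.

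Ndufv2 (chr17:66078795-66101559), a core subunit with an iron-sulphur cluster, was at 66.9, 58.8 and 67.4 FPKM in the controls and 73.1 and 88.8 FPKM in cKO. The groups did not overlap, and control replicate 2 was the lowest library. The log2 change was 0.32 (SE 0.15; adjusted p = 0.575 in limma), and 0.18 without cKO replicate 2. In 2 further core subunits the groups overlapped. Ndufs1, the largest core subunit, was at 35.1, 34.5 and 37.2 against 35.2 and 40.3 FPKM. Ndufv1, which holds the flavin and binds NADH, was at 80.2, 112 and 104 FPKM against 88.7 and 101 FPKM.

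The 3 most negative values in complex I were those of Ndufb7, Ndufb11 and Ndufv3. Ndufb7 (chr8:83566758-83571623), an accessory subunit which lies on the intermembrane side, was at 159, 272 and 240 FPKM in the controls and 175 and 135 FPKM in cKO. The groups overlapped, because control replicate 1 was as low as the cKO libraries. Its log2 change of -0.50 (SE 0.28; adjusted p = 0.575 in limma) was -0.73 without control replicate 1 and -0.31 without cKO replicate 2. Ndufb11, whose gene is X-linked (chrX:20615326-20617619), was at 58.9, 82.0 and 68.7 FPKM against 61.0 and 47.7 FPKM, with a log2 change of -0.35 (SE 0.20; -0.18 without cKO replicate 2). Here too control replicate 1 lay between the cKO libraries. Ndufv3, an accessory subunit of the matrix arm, was at 140.1, 235 and 136 against 156 and 107 FPKM (-0.35, SE 0.31). The most abundant members of the group gave values near 0, namely Ndufa3 (381 ± 76.3 FPKM, n = 3, against 367 ± 34.3, n = 2) and Ndufa4 (348 ± 27.6 against 350.1 ± 11.7), the latter an enzyme part now usually assigned to complex IV.

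Complex II, succinate dehydrogenase, also works in the tricarboxylic acid cycle. All 4 subunits overlapped between the groups, with 2 of 4 negative and a median of -0.02. Sdha, the flavoprotein that oxidises succinate, was at 65.1, 71.5 and 73.5 FPKM in the controls and 72.3 and 77.7 in cKO (log2 change 0.10, SE 0.13). Sdhb, the iron-sulphur subunit with the NRF1 letters shown above, was at 116, 161 and 142 against 137 and 120 FPKM (-0.11, SE 0.19). In Sdhb both cKO values lay inside the control range. The membrane anchors were Sdhc, at 110, 133 and 120 against 120 and 90.6 FPKM (-0.21, SE 0.18), and Sdhd, at 51.5, 79.9 and 73.1 against 61.1 and 82.3 FPKM (0.08, SE 0.25). The widest of the 4 was Sdhd, whose controls alone spanned 51.5 to 79.9 FPKM.

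In complex III, the cytochrome bc1 complex, 6 of 9 members were negative with a median of -0.02. Without control replicate 1 that median was -0.21. Uqcrh (chr4:116066965-116075070), the hinge subunit beside cytochrome c1, was at 243, 364 and 322 FPKM in the controls and 260 and 183 FPKM in cKO. Control replicate 1 fell between the cKO libraries, so the groups overlapped. Its log2 change was -0.48 (SE 0.25; adjusted p = 0.575 in limma). Leaving out cKO replicate 2 gave -0.23, and leaving out cKO replicate 1 gave -0.73.

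The redox subunits of complex III did not follow Uqcrh. Cyc1, the cytochrome c1 that hands electrons to cytochrome c, was at 151, 213 and 177 against 160 and 178 FPKM (log2 change -0.09, SE 0.19). Uqcrfs1, the Rieske iron-sulphur protein, was at 96.5, 102 and 105 against 99.9 and 142 FPKM (0.23, SE 0.19; -0.021 without cKO replicate 2). In both genes at least 1 cKO library lay within the controls. Uqcrc2, a core protein of the matrix side, had both cKO libraries above the controls, at 96.8 and 112 against 90.7, 88.7 and 96.6 FPKM; cKO replicate 1 exceeded control replicate 3 only narrowly (0.18, SE 0.14; adjusted p = 0.645 in limma). Uqcrb, a small subunit near the quinone site, was at 35.7, 33.9 and 44.6 against 41.3 and 46.1 FPKM. Uqcrq, the most abundant member, was at 249, 439 and 305 against 315 and 284 FPKM. Uqcrq had both cKO libraries within the controls.

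Cycs, the somatic cytochrome c that carries electrons between complexes III and IV and also acts in apoptosis, was listed at only 1.68, 1.15 and 1.72 FPKM in the controls and 1.86 and 1.97 FPKM in cKO. The groups did not overlap, but the values are close to the minimum for testing and Cycs is among the 6 uncertain low levels above (log2 change 0.22, SE 0.20; adjusted p = 0.692 in limma).

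Complex IV, cytochrome c oxidase, had 14 tested members, among them 3 low tissue isoforms. Of the 14, 7 were negative, the median was 0.00 (0.19 without control replicate 2), and the range was -0.76 to 0.90. The ends of that range are the isoforms Cox7a1 and Cox6b2, and the 11 members of the main form ran from -0.44 to 0.43. For all 14, the median size without sign was 0.24. Cox5a (chr9:57517328-57532427), a matrix-side subunit, was at 223, 280 and 259 FPKM in the controls and 295 and 392 FPKM in cKO. Both cKO libraries were above the controls, cKO replicate 2 by far the more (log2 change 0.43, SE 0.20; adjusted p = 0.575 in limma). The change was 0.22 without cKO replicate 2. Cox7b, a small X-linked membrane subunit (chrX:106015700-106022450), was at 52.6, 46.4 and 51.6 against 57.3 and 68.1 FPKM (0.31, SE 0.14; 0.19 without cKO replicate 2). Again the groups were apart, and cKO replicate 2 was the highest library.

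Of the 3 most abundant members of complex IV, none had both cKO libraries above the controls. Cox4i1 was at 628, 865 and 880 FPKM in the controls and 651 and 655 in cKO, so that the cKO libraries lay just above control replicate 1 and well below the other controls (-0.26, SE 0.22; adjusted p = 0.674 in limma). Cox6a1, whose promoter holds both NRF1 and ETS letters, was at 446, 772 and 524 against 536 and 442 FPKM (-0.21, SE 0.28). Cox6b1, which faces cytochrome c, was at 443, 511 and 483 against 482 and 532 FPKM (0.08, SE 0.17). Cox8a, a small membrane subunit of lower level, was at 181, 280 and 215 against 184 and 200 FPKM (-0.21, SE 0.22). In these 4 genes the groups overlapped. Cox7c was at 4.76, 4.73 and 4.90 against 4.13 and 2.54 FPKM (-0.44, SE 0.20; -0.18 without cKO replicate 2 and -0.71 without cKO replicate 1), the groups did not overlap, and it is among the uncertain low levels.

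Several complex IV subunits exist in a general form and in forms known from single tissues. Cox7a1 (chr7:30184171-30186030), the heart and skeletal muscle form of subunit 7a, was at 5.18, 5.18 and 4.12 FPKM in the controls and 2.10 and 2.78 FPKM in cKO. Both cKO libraries lay below every control, the mean ratio was 0.505, and the log2 change of -0.76 (SE 0.18, 95% interval -1.22 to -0.31) had the smallest unadjusted p of all subunits (0.00699 in limma; adjusted p = 0.575). The most negative and the mildest value over the settings were -0.96 and -0.40, the latter with a pseudocount of 5. Muscle and heart markers (Myh7, Tnnt2, Actc1, Ckm, Myh6; 1 of 5 tested) summed to 1.02 to 2.20 FPKM in controls and 1.31 to 2.00 in cKO, with Ckm at 0 in 4 of 5 libraries. The sum rests mostly on Myh7, and the 4 untested markers are near 0. Tnnt2, at 0.0622, 0.0632 and 0.0599 FPKM in the controls and 0.0495 and 0.0241 in cKO, was lower in both cKO libraries as Cox7a1 was, and Actc1, at 0.282, 0.330 and 0.130 against 0.126 and 0.179, overlapped. The part of muscle RNA in the Cox7a1 values was not tested.

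Cox7a2, the general form of the same subunit, was at 194, 222 and 204 against 226 and 276 FPKM (0.27, SE 0.16; 0.13 without cKO replicate 2), and Cox7a2l, a related protein of supercomplexes, at 80.3, 103 and 95.2 against 81.7 and 94.0 FPKM (-0.08, SE 0.17). Taken as shares of the 3 genes' summed FPKM, Cox7a1 was 1.59 ± 0.249% in controls (SD, n = 3) and 0.711 ± 0.0487% in cKO (n = 2). Cox7a2 was 68.0 ± 1.26% against 73.5 ± 0.717%, and Cox7a2l was 30.4 ± 1.48% against 25.8 ± 0.766%. None of these shares overlapped between the groups, each with an exact permutation p of 0.1, the smallest possible and too large to pass 0.05. Shares of one sum are tied to each other, so these are not independent differences.

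In the other isoform families the main form held at least 96.2% of the family's FPKM in every library. Cox4i2, a form induced by low oxygen, was at 0.992, 1.44 and 1.44 against 2.02 and 1.31 FPKM and took 0.162 ± 0.00421% of the Cox4i sum in controls and 0.255 ± 0.0774% in cKO. Cox6b2, known from testis, had the largest positive log2 change of all subunits (0.90, SE 0.53; adjusted p = 0.581 in limma), from 6.70, 10.9 and 3.68 FPKM in the controls against 7.92 and 21.2 in cKO. Only cKO replicate 2 stood out. Without that library the change was 0.24. Ndufa4l2, also induced by low oxygen, was at 4.49, 5.50 and 4.08 against 4.36 and 3.08 FPKM, with overlapping groups. Among the 80 tested members, Cox6b2 and Cox7a1 were the only ones whose group means differed by at least 1.5-fold in either direction.

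**Figure D3:**
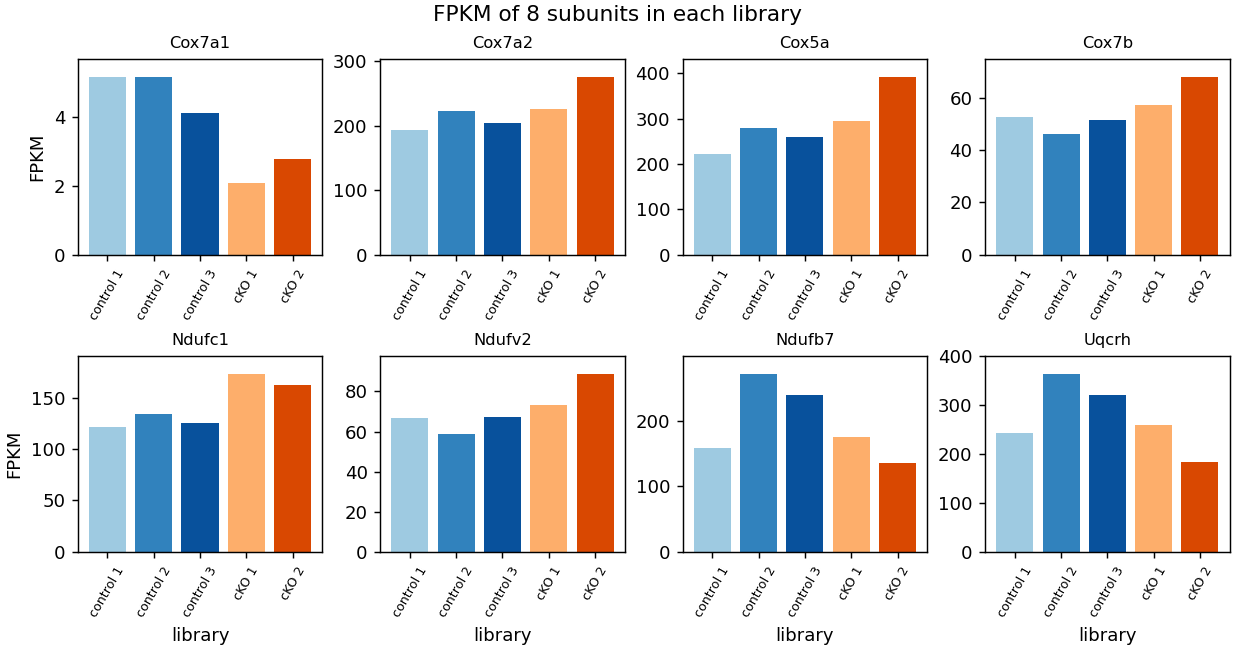
FPKM of 8 subunits in each library (bars from 0; blue, 3 controls; orange, 2 cKO). Cox7a1 is lower in both cKO libraries than in any control, Cox7a2, Cox5a, Cox7b, Ndufc1 and Ndufv2 are higher, and in Ndufb7 and Uqcrh control 1 lies at the level of the cKO libraries.

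Complex V, the ATP synthase, had 9 of 15 negative members and a median of -0.05. The 5 subunits of the catalytic F1 part (Atp5a1, Atp5b, Atp5c1, Atp5d, Atp5e) had a median of 0.01 with 2 negative, and the 8 other enzyme subunits a median of -0.06 with 6 negative. Atp5b was at 533, 658 and 625 against 600.2 and 715 FPKM (0.12, SE 0.19). Atp5c1, the gamma subunit that turns within F1, was at 127, 141 and 154 against 147 and 182 FPKM (0.22, SE 0.17). Atp5e was at 604, 952 and 788 against 660.2 and 905 FPKM (0.01, SE 0.28). In all 3 the groups overlapped.

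The ring of c subunits comes from 3 genes that encode the same mature protein. Atp5g3 gave 98.2 ± 0.668% of their sum in controls and 97.6 ± 0.107% in cKO, at 397, 496 and 433 against 436 and 368 FPKM (-0.14, SE 0.19). Atp5g1 was at 8.75, 10.1 and 4.42 against 10.7 and 8.79 FPKM (0.36, SE 0.33), with control replicate 3 lowest. Thus nearly all ring transcript was read from Atp5g3 in each library, within the limit of the uncertain low levels above.

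Atp5sl and Atp5s carry the prefix but are not ATP synthase subunits in the strict sense. Atp5sl (chr7:25619414-25625550), also called Dmac2, belongs to the assembly of the distal membrane arm of complex I, and Atp5s, coupling factor B, is loosely tied to the enzyme. Atp5sl was at 17.3, 17.2 and 16.1 FPKM in the controls and 11.8 and 13.98 FPKM in cKO. Both cKO libraries were below all controls (log2 change -0.37, SE 0.13; unadjusted p = 0.0348 and adjusted p = 0.575 in limma). Atp5s was at 4.79, 2.56 and 3.44 against 4.12 and 5.14 FPKM, with overlap.

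The largest common pattern among the subunits lay between controls and not between cKO and control. Relative to the mean of the 3 controls, the median subunit was at -0.18 in control replicate 1, 0.16 in control replicate 2, 0.03 in control replicate 3, -0.02 in cKO replicate 1 and 0.00 in cKO replicate 2. Control replicate 2 was above control replicate 1 in 67 of 80 subunits (83.8%) with a median difference of 0.35, against 50.8% of all loci with a median of 0.01. Control replicate 1 was the lowest library in 46 of 80 (57.5%, against 20.1% of all loci), and control replicate 2 the highest in 43 of 80 (53.8%, against 34.8%). At least 1.5-fold more FPKM in control replicate 2 than in control replicate 1 was found for 19 subunits, among them Cox5b, Cox6a1, Uqcrq, Uqcr11, Ndufb7 and Atp5e. Each complex repeated the order, with control replicate 1 lowest (medians from -0.24 in complex III to -0.15 in complex V) and control replicate 2 highest (0.15 in complex IV to 0.18 in complex II).

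A minority of subunits ran the other way. Ndufs1, Ndufs4, Ndufv2, Uqcrb, Uqcrc2, Cox7b, Atp5s and Cycs were lowest in control replicate 2. All 8 were highest in cKO replicate 2, which was the highest library for 24 of 80 subunits (30.0%, against 23.7% of all loci).

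**Figure D4:**
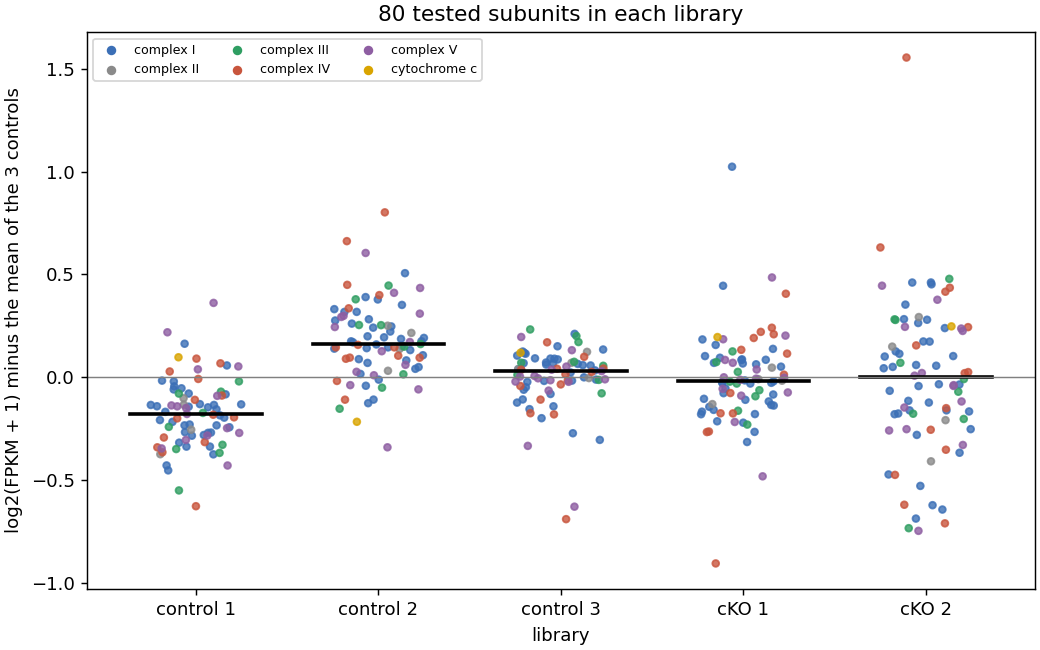
Each point is 1 of the 80 tested subunits, drawn as log2(FPKM + 1) in a library minus its mean over the 3 controls, and black bars are medians over subunits. The median runs from -0.18 in control 1 to 0.16 in control 2, while both cKO libraries sit near 0.

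The controls with the lowest and the highest subunit levels thus enclosed both cKO libraries. cKO replicate 1 was above control replicate 1 in 70 of 80 subunits and above control replicate 2 in 20 of 80. cKO replicate 2 was above control replicate 1 in 59 and above control replicate 2 in 27. The direction of the group comparison therefore turned with the control left out. Without control replicate 1, 54 of 80 subunits were negative (67.5%, median -0.16), and without control replicate 2, 22 of 80 (27.5%, median 0.08). The medians of all tested loci stayed at -0.01 and -0.02 in these fits. No subunit was called in either. Control replicate 1 was also the only library labelled c/+ without Cre, so genotype and library cannot be told apart there.

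**Figure D5:**
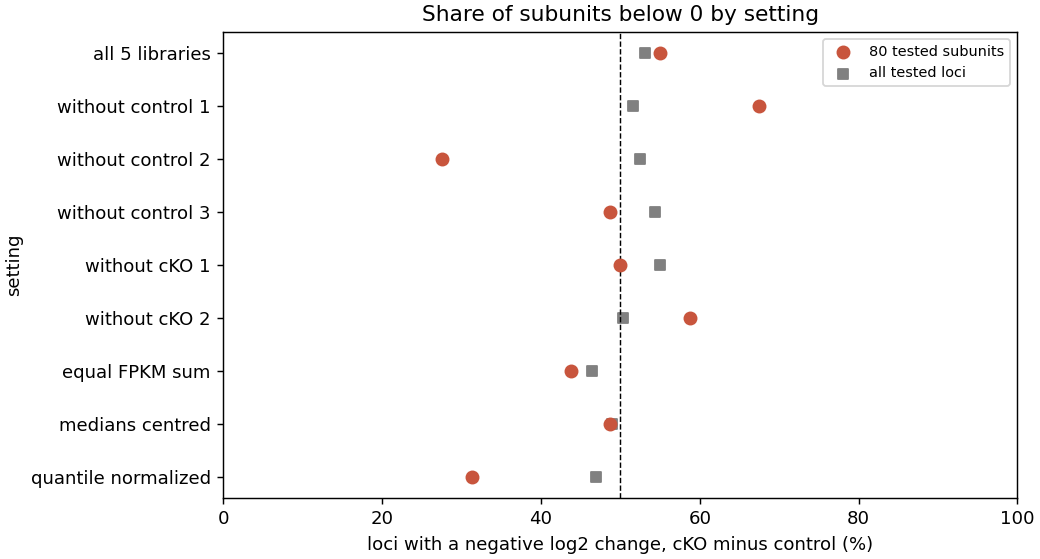
Percent of loci with a negative log2 change (cKO minus control) under each setting, for the 80 tested subunits (circles) and all tested loci (squares); the dashed line is an even split. The subunits run from 27.5% without control 2 to 67.5% without control 1, and all loci stay near an even split.

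Other abundant housekeeping sets had the same order of controls. The 75 tested mitochondrial ribosomal proteins had medians of -0.17 in control replicate 1 and 0.15 in control replicate 2, the 36 proteasome subunits -0.16 and 0.10, and the 79 cytosolic ribosomal proteins -0.27 and 0.21. Against the controls, the cytosolic ribosomal proteins had a median log2 change of -0.21 with 59 of 79 negative, the mitochondrial ribosomal proteins -0.07 with 44 of 75 negative, and the proteasome 0.04 with 16 of 36 negative. The difference between these sets and the subunits was not tested.

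Cell type markers differed along the same axis and between the groups. Intermediate progenitor markers (6 of 6 tested) summed to 273 FPKM in control replicate 1, 607 in control replicate 2 and 383 in control replicate 3, and to 257 and 195 FPKM in cKO. Radial glia markers summed to 1370 FPKM in control replicate 1 and 1905 in control replicate 2. Most of that difference was Vim, at 451 and 816 FPKM, while Slc1a3 was at 35.03 and 31.3 FPKM. The neuronal genes Mapt (301 and 124 FPKM in control replicates 1 and 2) and Stmn2 (489 and 216 FPKM) ran the other way within a projection neuron sum that hardly differed. Between the groups, the radial glia genes Nes, Emx2, Hes1 and Vim were below every control in both cKO libraries (log2 changes of -0.84, -0.95, -0.48 and -0.52). Fabp7 was above (0.24), Sox2, Pax6, Hes5 and Slc1a3 overlapped, and none of these genes was called in limma. Of all tested loci, 15.6% had both cKO libraries below every control and 13.4% had both above. Of the intermediate progenitor genes, Eomes, Neurog1, Neurog2 and Gadd45g were below every control in both cKO libraries, while Btg2 and Insm1 overlapped. Of the projection neuron genes, Tbr1 and Bcl11b were above every control in both cKO libraries, and the others overlapped. Tbr1 was at 64.2, 119 and 97.6 against 138 and 135 FPKM, and Bcl11b at 50.4, 49.9 and 49.9 against 77.3 and 54.5 FPKM. Markers of ventrally born interneurons (7 of 7 tested) summed to 206 to 320 FPKM in controls and 419 to 462 in cKO, and those of microglia (9 of 9 tested) to 30.3 to 47.9 in controls and 96.9 to 99.7 in cKO. In these lists Gad1 and Cx3cr1 overlapped, and every other gene had both cKO libraries above the controls. Cx3cr1 was at 1.92, 2.51 and 1.90 against 4.58 and 0.875 FPKM, with cKO replicate 2 the lowest library. Endothelium and pericyte markers (7 of 7) summed to 72.3 to 86.0 against 87.7 to 97.7 FPKM. Of these, Rgs5 (15.9, 11.4 and 13.1 against 19.4 and 27.4 FPKM) and Kcnj8 had both cKO libraries above the controls, while Cldn5, Pecam1, Kdr, Cdh5 and Pdgfrb overlapped. Erythroid markers for 8 genes summed to 734 to 880 FPKM over all libraries. No marker gene of these lists was at 0 in all libraries. The part of cell composition in the subunit levels was not tested. In tissue RNA, fewer cells of a type and less RNA per cell cannot be told apart.

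Genes that build, feed and regulate the chain were read from lists of known function. None of their members was called at an adjusted p under 0.05 in limma. Of 47 tested assembly factors, 24 were negative, none had an unadjusted p under 0.05, and the median was -0.02. Uqcc2, an assembly factor of complex III, was at 138, 196 and 188 against 142 and 91.5 FPKM (-0.59, SE 0.26; -0.27 without cKO replicate 2; adjusted p = 0.575 in limma). Its pattern was that of Uqcrh, with control replicate 1 next to cKO replicate 1. Ndufaf6, an assembly factor of complex I, was at 8.74, 8.99 and 9.01 against 5.66 and 7.96 FPKM (-0.36, SE 0.17; -0.15 without cKO replicate 1), with both cKO libraries below the controls.

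The lists around the quinone pool and substrate supply held a smaller share of negative values than the 53.1% of all tested loci. Of 12 genes for ubiquinone and cytochrome c handling, 4 were negative (33.3%). Of the 12, 3 had an unadjusted p under 0.05 in limma on the positive side and 1 on the negative side (background 3.08% and 4.37%). Relative to the control mean, the median of this list was 0.08 in cKO replicate 1 and 0.11 in cKO replicate 2. Coq7, a hydroxylase of ubiquinone synthesis, was at 33.6, 43.9 and 37.7 FPKM in the controls and 54.8 and 58.5 FPKM in cKO. Coq10b, a ubiquinone-binding protein, was at 7.78, 8.17 and 7.80 against 10.5 and 13.7 FPKM. The log2 changes were 0.56 (SE 0.16) for Coq7 and 0.54 (SE 0.15) for Coq10b, both with an adjusted p of 0.575 in limma, and the groups did not overlap in either.

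Of 20 genes of the tricarboxylic acid cycle and pyruvate entry, 7 were negative, with a median of 0.08. Sucla2, a subunit of succinyl-CoA ligase, was at 23.7, 21.6 and 24.8 against 28.7 and 33.3 FPKM (0.39, SE 0.14; adjusted p = 0.575 in limma). Idh3a, the catalytic subunit of NAD-linked isocitrate dehydrogenase, was at 34.9, 26.6 and 34.4 against 37.3 and 42.6 FPKM (0.32, SE 0.17). In both genes control replicate 2 was the lowest library, unlike most subunits of the chain.

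The last list held membrane carriers and pores (Slc25a3, Slc25a4, Slc25a5, Ucp2, Vdac1, Vdac2, Vdac3) and 1 regulator of the ATP synthase, Atpif1. All 8 genes had positive values, with a median of 0.21. Atpif1, the inhibitor protein that stops the synthase from running backwards, was at 105, 110 and 101 FPKM in the controls and 135 and 140.2 FPKM in cKO (0.38, SE 0.13; adjusted p = 0.575 in limma). Vdac1, the main pore of the outer membrane, was at 141, 139 and 138 against 162 and 177 FPKM (0.29, SE 0.13). Both genes had tight controls and no overlap. The 8 genes differed between the cKO libraries, with a median from the control mean of 0.03 in cKO replicate 1 and 0.38 in cKO replicate 2.

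Protein import had 13 of 28 negative and a median of 0.03. Tomm7 was at 35.1, 42.5 and 38.4 against 47.7 and 56.8 FPKM (0.42, SE 0.15), and Tomm70a, an import receptor, at 46.4, 28.6 and 35.4 against 49.6 and 54.2 FPKM (0.51, SE 0.22). The cKO libraries were the highest 2 in each gene. Of 18 regulators of mitochondrial biogenesis, 9 were negative with a median of -0.07. Gabpb1, the beta subunit of the GABP factor named above, was at 21.7, 19.4 and 20.9 against 24.0 and 33.3 FPKM (0.44, SE 0.17; 0.21 without cKO replicate 2; adjusted p = 0.575 in limma). Polg2, the accessory subunit of the mitochondrial DNA polymerase, was at 5.62, 4.81 and 4.09 against 2.65 and 3.57 FPKM (-0.51, SE 0.19). The groups did not overlap in Gabpb1 or Polg2.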

How the data were processed

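The deposited table gives values for each library and the group means of the authors. Its header names no unit for them, and they were read as FPKM of the authors because the notes name Cufflinks. The same table gives the authors' log2 fold change, the score of their test, and a p-value with its q-value, per the file headers. The submitters' processing notes name CASAVA, TopHat, Cufflinks, Bowtie2, MACS and mm10, without versions or roles. The sources used here do not give the annotation or the strand setting. Low values did not fall on whole multiples, so reads were not recovered, depth is unknown and no counting interval was possible.

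Groups came from titles and genotype labels. The 12672 loci whose mean reached 1 FPKM were tested. Values of log2(FPKM + 1) were compared between cKO and control in limma (version 3.58.1 under R 4.3.3), using eBayes with a trend, and p was adjusted by Benjamini-Hochberg over all tested loci (3 residual and 2.49 prior degrees of freedom). Log2 changes are on this scale, which understates those of low genes. The procedure was tested on simulated data. Alternatives changed the pseudocount, filter, scaling, variance trend, loci with several symbols, replicate block and libraries.

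Named genes were Chd8, up to 4 members per complex with the smallest unadjusted p and up to 2 with the highest mean, Cyc1, Cycs, the isoform families, and up to 2 genes per other list with the smallest unadjusted p. Further examples, the roles within complexes and the level of 15 FPKM for low members were picked with values in view. Members and lists were chosen with earlier results of these data known. The values of 1 member are not reported here.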

Additional observations from a re-analysis of the deposited data

How the results depend on the processing

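No subunit was called under any of the 15 alternatives. With all libraries 6 of the tested loci were called, against 3 with a pseudocount of 5, 3 with the replicate block, and 9 to 37 with 1 library left out. The count of negative subunits was 44, against 25 with quantile normalization, 39 with the replicate block, and 22 to 54 with 1 library left out (22 without control replicate 2, 54 without control replicate 1). With 1 library left out, the median log2 change ran from -0.16 to 0.084 for all subunits, -0.16 to 0.059 for complex I, -0.17 to 0.054 for complex II, -0.21 to 0.12 for complex III, -0.089 to 0.19 for complex IV and -0.16 to 0.092 for complex V. Where 1 cKO library was left out, the remaining one is assumed to vary like the controls. The replicate block used the numbers in the titles. Deviations of same-numbered libraries correlated at -0.067 for number 1 and -0.11 for number 2. With 2 cKO libraries, their deviations from the group mean mirror each other. These values therefore cannot show whether same-numbered samples were paired, and control replicate 3 has no partner. Of the 37 named subunits, 26 had the same sign in every setting. Leaving out the tissue isoforms, Atp5s and Atp5sl, an alternative added after seeing the data, gave 41 negative of 74. The cause of these shifts was not tested. Without counts, depth sets no limit that could be stated, and the number of libraries limits the precision.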
